A study of Homo sapiens with 12 samples.

Results

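The 7 genes described here belong to cyclic GMP (cGMP) signalling, and their RNA was measured in MRC5 cells, a line of human embryonic lung fibroblasts. They are the soluble guanylate cyclase subunit genes GUCY1A1, GUCY1A2 and GUCY1B1, the kinase gene PRKG1, the phosphodiesterase gene PDE5A and the natriuretic peptide receptor genes NPR2 and NPR3. The set was chosen by a measured value, since GUCY1B1 was among the largest rises in irradiated cells given UK5099. Its 7 genes are among 57500 in the deposited table of counts. A filter on low counts kept 6 of them, with 16251 genes in all, and left out GUCY1A2.

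Soluble guanylate cyclase is a heterodimer of an alpha and a beta subunit whose heme group binds nitric oxide, and the bound enzyme makes cGMP from GTP. Without the beta-1 subunit encoded by GUCY1B1, neither alpha subunit forms an active enzyme. The cGMP made in this way activates the cGMP-dependent kinase encoded by PRKG1, and PDE5A breaks it down. NPR2 is a receptor for C-type natriuretic peptide that carries its own cyclase domain, whereas NPR3 removes natriuretic peptides from the cell surface and has no cyclase domain. In fibroblasts and smooth muscle the pathway is known for relaxing the contractile apparatus and restraining myofibroblast genes.

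RNA was sequenced in 12 libraries, in 4 groups of 3. Proliferating cells (Prol) were not irradiated. Cells in the Sen(IR) group were made senescent by 20 Gy of X-rays and collected 10 to 12 days later. Irradiated cells also received, from day 1, either 100 μM UK5099, which blocks the mitochondrial pyruvate carrier, or CTPI2, which blocks the mitochondrial citrate carrier SLC25A1 (the methods name 15 and 30 μM, and not which of these was sequenced). The figure legends of the study call the replicates of its RNA sequencing independent experiments or conditions. All groups are of the same cell line, so p-values measure the spread between replicates of that line. Because the libraries are bulk RNA, fewer cells with a transcript and less transcript per cell cannot be told apart.

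Total counts per library ran from 20597736 to 28245693, so the counting floor of 3 counts was 0.111 to 0.147 CPM (a gene's counts as parts per 10⁶ of the TMM-scaled library total). All 10 fibroblast markers passed the filter, and their summed level lay between 21364 and 25402 CPM in Prol, 20693 and 21279 in Sen(IR), 18265 and 20053 with CTPI2, and 10908 and 11400 with UK5099. Summed smooth muscle markers, of which 7 of 8 passed the filter, lay between 1201 and 1497 CPM in Prol, 276 and 281 in Sen(IR), 250 and 260 with CTPI2, and 130 and 135 with UK5099. Pericyte markers, 6 of 7 of which passed, summed to 544 to 594, 310 to 319, 312 to 327 and 355 to 378 CPM in the same order. MCAM made up most of that sum (439, 192, 186 and 246 CPM). MCAM and CSPG4 were called lower in Sen(IR) than in Prol, while RGS5, ABCC9 and NOTCH3 were called higher. With UK5099 against Sen(IR), RGS5 and ABCC9 were called lower, and the other tested pericyte markers were not called. Endothelial markers summed to 0.853 to 6.35 CPM over the 12 libraries, with TIE1, EMCN and ERG at or under the floor in every group. Epithelial markers summed to 1.00 to 1.15 CPM in Prol and 1.82 to 2.71 in the irradiated groups, with KRT5, KRT14 and ESRP1 at or under the floor throughout. Leukocyte and platelet markers summed to 1.07 to 1.36 CPM in Prol and 4.34 to 7.02 after irradiation, with CD3E and GP9 at or under the floor throughout. CD14 (0.192 to 3.32 CPM) and ELF3 (at or under the floor to 1.29 CPM) were called higher in Sen(IR) than in Prol. So was CD68 (0.923 to 1.68 CPM), while the endothelial marker KDR was called lower (4.21 to 0.949 CPM). The part of these markers in the results below was not tested.

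GUCY1A1 and GUCY1B1 lie side by side on the forward strand of chromosome 4, with 92.3 kb between their starts. In GENCODE v44 on GRCh38, GUCY1A1 (ENSG00000164116) spans chr4:155666726-155737059 and GUCY1B1 (ENSG00000061918) spans chr4:155758992-155807811. GUCY1B1 shares no exon base with another gene. GUCY1A1 shares 24.97% of its exon bases with the transcript AC104083.1 (ENSG00000260244) on the same strand, so its counts are less certain. The promoter sequences of both genes, from RefSeq on GRCh38.p14, are printed because these are the genes whose levels separated the UK5099 libraries most clearly. Each is written 5′ to 3′ on the forward strand and ends at the base before the gene start given above, with capitals on matches to CCAAT or GGGCGG on either strand (ATTGG is CCAAT read on the other strand).
GUCY1A1 promoter, chr4:155666598-155666725: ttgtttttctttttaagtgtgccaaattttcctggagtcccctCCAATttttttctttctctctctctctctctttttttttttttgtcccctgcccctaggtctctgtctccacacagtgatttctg
GUCY1B1 promoter, chr4:155758771-155758991: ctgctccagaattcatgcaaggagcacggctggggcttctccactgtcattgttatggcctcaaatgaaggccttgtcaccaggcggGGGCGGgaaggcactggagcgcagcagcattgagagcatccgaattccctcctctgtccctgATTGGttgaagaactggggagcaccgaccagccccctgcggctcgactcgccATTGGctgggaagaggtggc

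In its whole RefSeq window of 250 bases before and 50 after the start, GUCY1B1 held 2 matches to CCAAT, 2 to GGGCGG and 1 to TGACNNNGC. The first of the windows listed for GUCY1A1 held 2 matches to CCAAT and 1 to GGGCGG, and its other window held 2 to GCGTG. Of 35116 promoter windows of the same length, 34.6% held CCAAT, 45% GGGCGG, 13.3% TGACNNNGC and 36.5% GCGTG. Neither gene's windows matched TATAAA (11.5% of all windows), TGACGTCA (1.85%), CACGTG (7.26%) or TGAGTCA (4.95%). Both strands were searched, the motifs could overlap, and a match says only that the letters are present.

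GUCY1B1, the obligate beta-1 subunit, stood at 4.35, 7.68 and 4.61 CPM in the 3 Prol libraries, 12.6, 12.5 and 15.2 in Sen(IR), 15.3, 14.9 and 12.9 with CTPI2, and 61.6, 56.3 and 63.1 with UK5099. The UK5099 libraries were far above the other 9 and the Prol libraries below them all, while Sen(IR) and CTPI2 overlapped. Behind these levels were 102 to 179 counts in Prol and 1487 to 1627 with UK5099. The means were 5.55 ± 1.85, 13.4 ± 1.502, 14.4 ± 1.27 and 60.3 ± 3.53 CPM (SD, n = 3), in the order Prol, Sen(IR), CTPI2 and UK5099.

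GUCY1A1 encodes the alpha-1 subunit, the usual partner of beta-1. Its level was 0.469, 1.12 and 0.297 CPM in Prol, 1.02, 1.28 and 1.13 in Sen(IR), 1.49, 1.40 and 1.52 with CTPI2, and 4.02, 3.26 and 4.34 with UK5099. The order of the groups was that of GUCY1B1 at a much lower level, but here a Prol library reached into the range of Sen(IR). The counts were small, at 11, 26 and 8 in Prol, 23, 27 and 23 in Sen(IR) and 97, 88 and 112 with UK5099.

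GUCY1A2 encodes the alpha-2 subunit and lies on the reverse strand at chr11:106674019-107018476. It had 0, 3 and 1 counts in Prol, 9, 5 and 3 in Sen(IR), 8, 5 and 6 with CTPI2, and 6, 6 and 1 with UK5099. Every Sen(IR) and CTPI2 library was above every Prol library in CPM, while UK5099 overlapped all other groups. Sen(IR) 3 and Prol 2 both had 3 counts, however, and differed only through library size (0.147 and 0.129 CPM). Of all genes tested, 70.9% had no overlap between Sen(IR) and Prol, and 70.1% between CTPI2 and Prol. Against the floor of 3 counts per library, the Sen(IR) mean was at least 2.13-fold higher than Prol and the CTPI2 mean at least 2.22-fold higher. The gene entered a test only when the filter was dropped, and was then called higher in both (edgeR adjusted p = 0.0481 and 0.0405, on at most 9 counts per library).

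PRKG1 (chr10:50990888-52298423, forward strand), the cGMP-dependent kinase of fibroblasts and smooth muscle, was measured at 46.8, 54.4 and 45.3 CPM in Prol, 46.0, 45.5 and 45.3 in Sen(IR), 46.6, 46.2 and 51.6 with CTPI2, and 38.8, 35.3 and 43.5 with UK5099. The UK5099 libraries were lowest, by a narrow gap, and the rest lay close together. It spread less between groups than any other of the 6 tested genes, with means from 39.2 ± 4.10 CPM with UK5099 to 48.8 ± 4.91 in Prol (SD, n = 3).

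PDE5A (chr4:119494397-119628804, reverse strand), which hydrolyses cGMP, was by far the most abundant of the 7. Its level was 463, 561 and 446 CPM in Prol, 1333, 1327 and 1415 in Sen(IR), 1340, 1415 and 1494 with CTPI2, and 1648, 1632 and 1794 with UK5099. Every irradiated library was above every Prol library, and the UK5099 libraries were above the rest. The lncRNA ENSG00000291203 on the other strand shares 9.21% of its exon bases, and whether the libraries kept strand is not given in the sources used here.

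NPR2 (chr9:35791003-35809732, forward strand), the receptor cyclase, stood at 28.1, 33.4 and 30.3 CPM in Prol, 60.7, 62.8 and 61.3 in Sen(IR), 64.9, 63.6 and 54.3 with CTPI2, and 75.1, 72.4 and 68.4 with UK5099. Prol libraries were lowest and UK5099 libraries highest, and those of Sen(IR) and CTPI2 overlapped. NPR3 (chr5:32689070-32791724, forward strand), the clearance receptor, ran the other way, at 24.1, 36.9 and 28.3 CPM in Prol, 7.47, 7.02 and 6.38 in Sen(IR), 7.15, 7.97 and 9.09 with CTPI2, and 6.75, 7.42 and 9.18 with UK5099. The irradiated groups overlapped each other, and all lay below Prol.

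**Figure D1:**
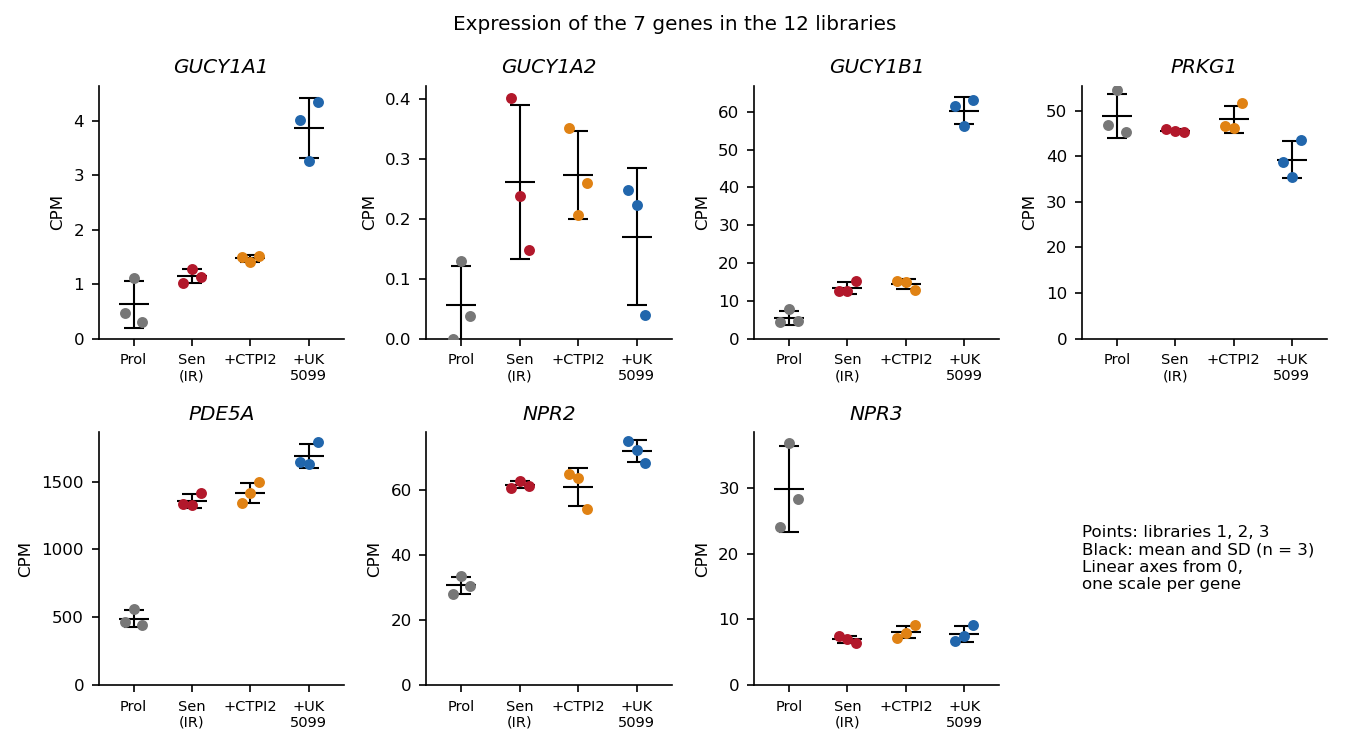
Level of each of the 7 genes in CPM (vertical axis, linear from 0, with a scale per gene) in Prol, Sen(IR), Sen(IR)+CTPI2 and Sen(IR)+UK5099; points are the 3 libraries of a group and black lines the mean and SD. GUCY1B1 lies between 56.3 and 63.1 CPM with UK5099 and at most at 15.3 CPM elsewhere, while NPR3 is above 24 CPM in Prol alone.

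The first comparison asked how the pathway differed between senescent and proliferating cells. PDE5A rose 2.77-fold in Sen(IR) against Prol (log2 fold change 1.47, SE 0.0691, edgeR adjusted p = 1.57e-14). GUCY1B1 rose 2.43-fold (1.28, SE 0.147, edgeR adjusted p = 7.72e-08) and NPR2 rose 2.01-fold (1.01, SE 0.0737, edgeR adjusted p = 4.13e-11). NPR3 fell 4.27-fold (−2.09, SE 0.142, edgeR adjusted p = 1.18e-11). Both natriuretic peptide receptors of the set therefore changed, in opposite directions.

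For GUCY1A1 the same test gave a log2 fold change of 0.89 (SE 0.352, edgeR adjusted p = 0.0299), with overlapping libraries. That call was lost when any of the libraries Prol 1, Prol 3, Sen(IR) 2 or Sen(IR) 3 was left out (adjusted p = 0.0985, 0.180, 0.0881 and 0.0543), and without Prol 2 the difference was 1.58. PRKG1 did not pass, at −0.10 with a 95% interval from −0.26 to 0.06 (edgeR adjusted p = 0.274), and upper-quartile scaling turned this value to 0.023.

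Among the 6 genes tested, 4 were called higher and 1 lower, where a call needs both a Benjamini-Hochberg adjusted p below 0.05 and a log2 fold change beyond 0.5 in either direction. Over all 16251 genes, 47.2% were called, 24.8% higher and 22.4% lower. The groups did not overlap for 4 of the 6 genes, against 70.9% of all genes. The median log2 fold change was 0.948 over the 6 genes and 0.0139 over all genes tested. This comparison shares its Sen(IR) libraries with the contrast the set was chosen on.

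In irradiated cells with CTPI2 against Prol, a comparison that uses none of those libraries of Sen(IR) or UK5099, 4 of the 6 genes were called higher and 1 lower, against 46.8% of all genes called, 24.8% higher and 21.9% lower. PDE5A rose 2.89-fold (log2 fold change 1.53, SE 0.0692, edgeR adjusted p = 8.10e-15), GUCY1B1 2.61-fold (1.38, SE 0.145, edgeR adjusted p = 1.74e-08) and NPR2 1.99-fold (0.99, SE 0.0734, edgeR adjusted p = 5.19e-11). GUCY1A1 rose 2.38-fold (1.25, SE 0.333, edgeR adjusted p = 0.00218), with every CTPI2 library above every Prol library. Leaving out 1 library moved this difference to between 0.89 (without Prol 3) and 1.94 (without Prol 2), and it stayed called. NPR3 fell 3.68-fold (−1.88, SE 0.138, edgeR adjusted p = 4.52e-11). PRKG1 did not pass, with a difference of −0.02 (edgeR adjusted p = 0.823) whose sign turned with upper-quartile scaling (0.0908). In all, 5 of the 6 genes had no overlap, against 70.1% of all genes, and the median was 1.12 against 0.0124. Prol is shared with the comparison above, so these calls are not a separate repeat of it.

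**Figure D2:**
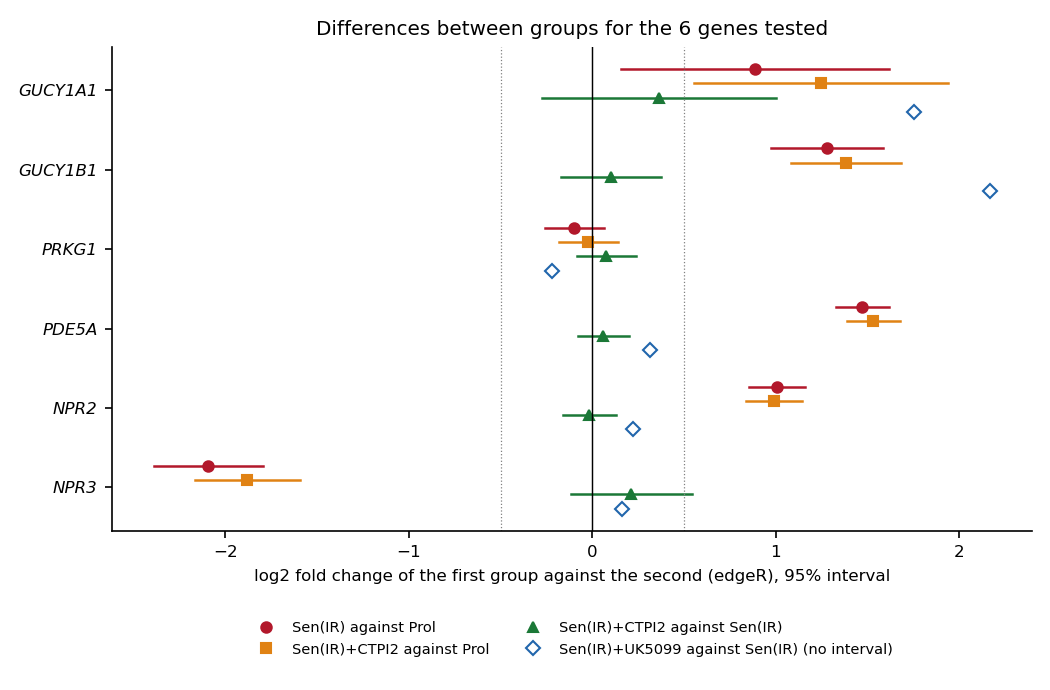
Log2 fold change of the first named group against the other (horizontal axis) for the 6 genes that passed the filter; filled points carry 95% intervals from edgeR, and open diamonds, for UK5099 against Sen(IR), are shown without an interval because that contrast chose the set. Dotted lines mark 0.5 in either direction: NPR3 is at −2.09 and −1.88 against Prol, whereas all triangles, CTPI2 against Sen(IR), lie between −0.02 and 0.36.

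With CTPI2 against Sen(IR) no difference in the 6 genes passed the edgeR test, 0 had an unadjusted p under 0.05, and DESeq2 called 0. In this comparison 0.166% of all genes were called. The difference was 0.10 for GUCY1B1 (95% interval −0.17 to 0.37), 0.06 for PDE5A (−0.08 to 0.20), 0.08 for PRKG1 (−0.09 to 0.24) and −0.02 for NPR2 (−0.16 to 0.13). Intervals were wider for NPR3, at 0.21 (−0.12 to 0.54), and for GUCY1A1, at 0.36 (−0.28 to 1.00). A change of GUCY1B1 or PDE5A as large as that between Sen(IR) and Prol lies outside these intervals, whereas for GUCY1A1 it lies within. The libraries of GUCY1A1 and PRKG1 did not overlap (2 of 6 genes, against 15.1% of all genes), with CTPI2 higher in each. The median was 0.0896 over the 6 genes and 0.00321 over all genes.

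The contrast of UK5099 with Sen(IR) chose the set, so its values are given as a description without a test. GUCY1B1 was 4.50-fold higher (log2 fold change 2.17) and GUCY1A1 3.38-fold higher (1.76). In the order of all 16251 log2 fold changes GUCY1B1 was number 32, below AP001922.6 (2.18) and above AL158151.1 (2.16). This rank restates the rule that chose the set.

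The other members differed by less. PDE5A was 1.25-fold higher with UK5099 (0.32), NPR2 1.17-fold higher (0.22), and PRKG1 was lower (−0.22). NPR3 differed by 0.16 with overlapping libraries. Without any 1 of the 6 libraries of these groups, the difference of GUCY1B1 stayed between 2.12 and 2.26. For 5 of the 6 genes, GUCY1B1 among them, the libraries did not overlap, against 56.6% of all genes. The median was 0.27 over the 6 genes and 0.00991 over all genes. The range, the count and the median all hold GUCY1B1, so they repeat in part the choice of the set. The share of counts from mitochondrial genes was 3.81 to 4.23% in the UK5099 libraries, above the range of Sen(IR) (2.78 to 3.21%), and the part of this shift in the differences was not tested.

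Against Prol, the UK5099 libraries had 10.9-fold more GUCY1B1 (log2 fold change 3.45), 6.25-fold more GUCY1A1 (2.64) and 3.45-fold more PDE5A (1.79). NPR3 was 3.81-fold lower in them (−1.93). Against CTPI2, which shares irradiation but not the carrier blocked, GUCY1B1 was 4.19-fold higher (2.07) and GUCY1A1 2.63-fold higher (1.39). NPR3 differed by −0.05 there. The same UK5099 libraries enter these comparisons and the one that chose the set, so the values repeat that choice. PDE5A, NPR2 and PRKG1 also had no overlap with UK5099 in either comparison. The share of all genes without overlap was not counted for these comparisons. It was 56.6% for UK5099 against Sen(IR), and against Prol it was 70.9% for Sen(IR) and 70.1% for CTPI2.

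Per kb of exon, levels can be compared between genes. PDE5A had 51.1 CPM per kb in Prol, 142 in Sen(IR), 148 with CTPI2 and 176 with UK5099. GUCY1B1 had 1.41, 3.403, 3.65 and 15.3 CPM per kb in the same order, and GUCY1A1 0.060, 0.109, 0.141 and 0.370. The alpha-1 transcript was thus the scarcer cyclase subunit in all 4 groups, and GUCY1A2 was lower still, at 0.00339 to 0.0167 CPM per kb. PRKG1 lay at 3.03 to 3.78 CPM per kb, and NPR2 at 3.67 in Prol and 7.29 to 8.61 after irradiation.

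The level of NPR2 per kb over that of NPR3 was 1.08 to 1.40 in the Prol libraries (mean 1.25). In Sen(IR) it was 9.70 to 11.5 (mean 10.6), with CTPI2 7.13 to 10.9 (9.17) and with UK5099 8.89 to 13.3 (11.3). The balance between signalling and clearance receptor transcripts was therefore near 1 in proliferating cells and well above it in all irradiated groups. With the length of the main transcript of each gene in place of all exons, the means were 1.84, 15.6, 13.5 and 16.6.

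PDE5A per kb was 37.9 times GUCY1B1 in Prol, 41.9 times in Sen(IR) and 40.9 times with CTPI2, with libraries from 30.03 to 47.5 (means of 3 libraries). With UK5099 the ratio was 11.0 to 11.9 (mean 11.5). The ratio of the cGMP-degrading enzyme to the cyclase subunit overlapped between Prol, Sen(IR) and CTPI2, and the UK5099 libraries lay below all of these. Because the set was chosen for the rise of GUCY1B1 with UK5099, the UK5099 ratios that hold GUCY1B1 repeat that choice. GUCY1B1 over GUCY1A1 was 27.99 ± 11.8 in Prol, 31.4 ± 4.97 in Sen(IR), 26.0 ± 2.93 with CTPI2 and 41.7 ± 3.73 with UK5099 (SD, n = 3). Its UK5099 libraries, at 38.5 to 45.8, overlapped those of Prol, at 18.3 to 41.1.

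**Figure D3:**
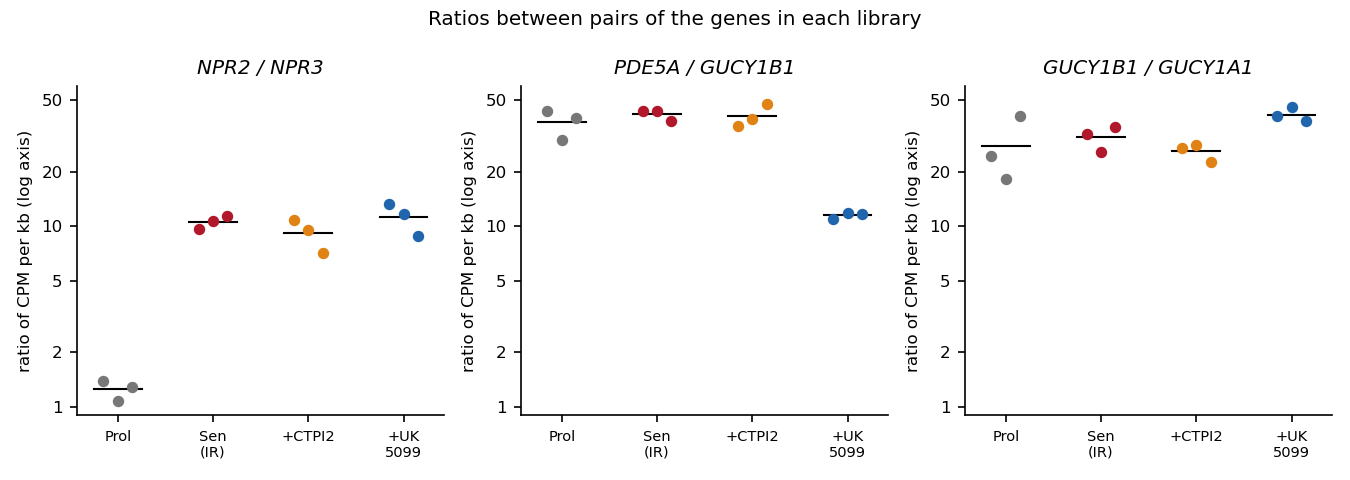
Ratios of CPM per kb of exon (vertical log axis) for 3 pairs of genes in each library, with the mean of a group as a black line. NPR2 over NPR3 is at most 1.40 in Prol and at least 7.13 elsewhere, and PDE5A over GUCY1B1 is at most 11.9 with UK5099 and at least 30.03 elsewhere. The UK5099 ratios that hold GUCY1B1 repeat the choice of the set.

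Across the 12 libraries the log2 CPM of GUCY1A1 and GUCY1B1 had a Pearson correlation of 0.963. That of PDE5A and NPR2 was 0.978, and NPR3 ran against both, at −0.928 and −0.938. GUCY1B1 correlated less closely with PDE5A (0.822) and negatively with PRKG1 (−0.693). These values describe 4 groups of 3 libraries that share their treatments, so they carry no test.

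Among 12137 other genes with a mean log2 CPM over 1, the patterns most like that of GUCY1B1 over the 12 libraries were those of SLC16A9 (Pearson r = 0.992), KIF9-AS1 (0.991), MAOA (0.991), MLH3 (0.989) and SNHG14 (0.989). SLC16A9 averaged 1.40 CPM in Prol, 5.19 in Sen(IR), 5.08 with CTPI2 and 28.1 with UK5099, and MAOA 7.94, 15.4, 18.3 and 65.5. These 2 followed GUCY1B1 in size too, whereas MLH3 went from 25.1 CPM in Prol to 42.6 with UK5099. The 12 libraries include those with UK5099, for whose rise GUCY1B1 was chosen, so its likeness to these genes repeats that choice in part. Nearest to GUCY1A1 were ARID5B (0.989) and SIK2 (0.982), and nearest to PRKG1 were SOX6 (0.945) and NCKAP5 (0.937). PDE5A was followed most closely by UBE2H and APH1B (0.998 each), NPR2 by GSTA4 (0.995) and GRIPAP1 (0.994), and NPR3 by CCNYL1 (0.991) and MFHAS1 (0.990).

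Of 37 genes in the table that start within 1 Mb of GUCY1A1 or GUCY1B1, 4 others passed the filter. AC104083.1, which shares exons with GUCY1A1, averaged 0.148 CPM in Prol, 0.280 in Sen(IR), 0.383 with CTPI2 and 0.759 with UK5099. TDO2, a tryptophan-degrading enzyme that starts 95.8 kb beyond GUCY1B1, averaged 0.881, 1.93, 2.16 and 3.46 CPM. AC104083.1 was not called in Sen(IR) against Prol (edgeR adjusted p = 0.200).

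MAP9 and CTSO lie further out. MAP9, which starts 382 kb before GUCY1B1, averaged 31.3 CPM in Prol, 54.0 in Sen(IR), 56.0 with CTPI2 and 65.5 with UK5099. AC104083.1, TDO2 and MAP9 all had the order of group means seen in GUCY1A1 and GUCY1B1. For each of them the Sen(IR) and CTPI2 libraries overlapped, and how many of all genes have this order was not counted. AC104083.1 shares exon bases with GUCY1A1, and its Prol mean (0.148 CPM) lay near the counting floor. CTSO, a cathepsin gene 195 kb beyond GUCY1B1, averaged 15.98 CPM in Prol and 96.8, 89.8 and 97.2 in the irradiated groups. It had the largest difference between Sen(IR) and Prol of these genes (log2 fold change 2.60, edgeR adjusted p = 7.25e-19) and the smallest between UK5099 and Sen(IR) (0.01). No neighbour was called with CTPI2 against Sen(IR).

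**Figure D4:**
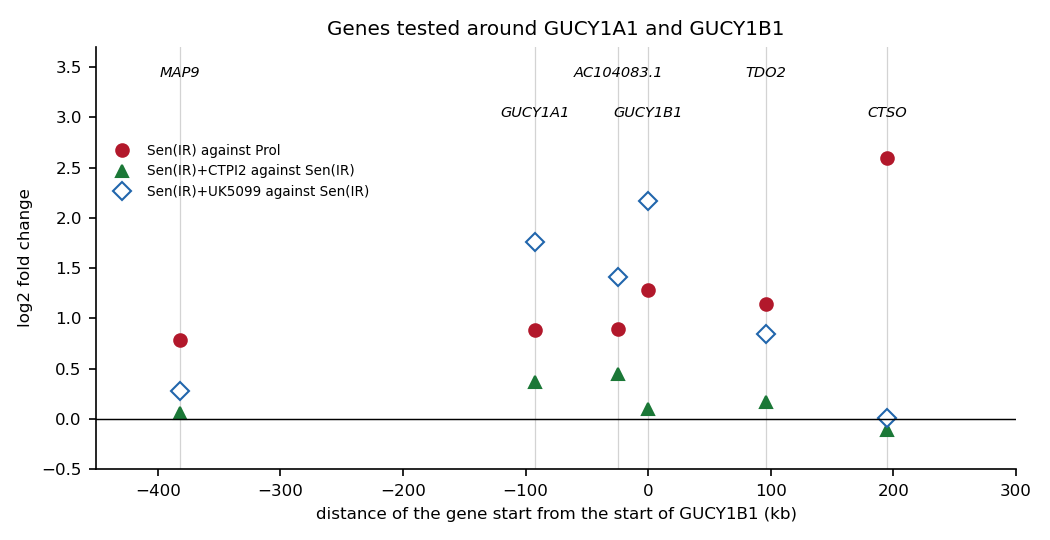
Log2 fold changes (vertical axis) of GUCY1A1, GUCY1B1 and the 4 tested genes around them, by distance of each gene start from that of GUCY1B1 in kb (horizontal axis), for 3 comparisons. Values with UK5099 against Sen(IR) are 1.76 for GUCY1A1, 1.41 for AC104083.1, 2.17 for GUCY1B1 and 0.85 for TDO2, and 0.28 for MAP9 and 0.01 for CTSO at the edges.

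Of 67 other genes of the pathway, listed by role, 41 passed the filter on low counts. In Sen(IR) against Prol, 16 were called higher and 11 lower (65.9% of the 41, against 47.2% of all genes), with a highest edgeR adjusted p among them of 0.0173. Their median log2 fold change was 0.145, against 0.0139 over all genes. With UK5099 against Sen(IR), 4 were called higher and 11 lower (36.6%, against 20.8% of all genes called, 8.76% higher and 12.1% lower), with a highest edgeR adjusted p of 0.007 and a median of −0.0865 against 0.00991. With CTPI2 against Sen(IR), edgeR and DESeq2 called 0 of the 41, and 5 had an unadjusted p under 0.05.

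Transcripts of the enzymes that make nitric oxide were few, since NOS1, NOS2 and NOS3 had at most 4, 9 and 7 counts in any library and did not pass the filter. NOS3 had 7, 3 and 6 counts in Sen(IR), and NOS2 had 1, 9 and 5 with UK5099. Their supply genes were measured, and of 14 tested, 5 rose and 3 fell in Sen(IR) against Prol (57.1%, against 47.2% of all genes). ASS1, which remakes arginine from citrulline, rose from 5.75 ± 0.982 to 39.2 ± 1.68 CPM (log2 fold change 2.77). GCH1, the first enzyme of tetrahydrobiopterin synthesis, rose by the same 2.77, from 2.14 ± 0.111 to 14.6 ± 1.76 CPM. NOS1AP (1.22, with only 4, 11 and 6 counts in Prol), SPR (0.66) and QDPR (0.59) rose as well. ARG2, an arginase, fell by 1.54 on the log2 scale, NOSTRIN by 1.00 and HSP90AA1 by 0.51.

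With UK5099 against Sen(IR), 2 of these 14 genes rose and 3 fell (35.7%, against 20.8% of all genes). GCH1 fell by 1.90 on the log2 scale, to 3.89 ± 0.856 CPM, while ASS1 stood at 46.0 ± 1.10 CPM. ARG2 rose from 0.528 ± 0.380 to 1.85 ± 0.677 CPM (1.83). The gene VTI1B on the other strand shares 39.6% of its exon bases. DDAH2, which degrades methylarginine inhibitors of nitric oxide synthase, rose by 0.54, and NOSTRIN and ASL fell by 1.52 and 0.52. NOSTRIN had only 7, 10 and 5 counts with UK5099.

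On the natriuretic side, the peptide genes NPPA, NPPB and NPPC had at most 3 counts in any library, and NPR1, the other receptor cyclase of this family, at most 12. CORIN, a protease that activates the atrial peptide, rose in Sen(IR) by 2.34 on the log2 scale, from 1.47 ± 0.288 to 7.41 ± 0.152 CPM, and fell with UK5099 by 1.09, to 3.48 ± 0.277. FURIN, a proprotein convertase, rose in Sen(IR) by 0.86. MME (neprilysin), which degrades natriuretic peptides, fell at each step, from 188 ± 16.1 CPM in Prol to 98.2 ± 3.9999 in Sen(IR) and 31.8 ± 2.45 with UK5099 (−0.94 and −1.63). With NPR3, MME was the other gene for peptide removal that was lower in Sen(IR) than in Prol.

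Among 9 other phosphodiesterases tested, 3 rose and 2 fell in Sen(IR), a share of 55.6% near the 47.2% of all genes. PDE11A, which hydrolyses both cAMP and cGMP, rose from 0.238 ± 0.123 to 3.03 ± 0.311 CPM (log2 fold change 3.603), and PDE3B rose by 1.09. PDE2A, which cGMP itself stimulates, had no count in Prol and 0.613 ± 0.148 CPM in Sen(IR), at least 4.996-fold higher against the floor of 3 counts per library. It passed the filter only through groups where it was high. Its rise here and its fall with UK5099, both in the shares given, are therefore a description only. PDE1C fell by 0.82 and PDE9A, specific for cGMP, by 0.73. With UK5099, PDE10A rose by 0.92, and PDE1C and PDE2A fell by 0.66 and 2.19 (3 of 9, or 33.3%, against 20.8% of all genes). PDE2A averaged 0.126 CPM with UK5099, close to the counting floor. None of the 9 came near the level of PDE5A, since PDE1C, the highest of them in Prol, stood at 58.4 ± 3.77 CPM there and at 20.8 ± 0.383 with UK5099.

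For other effectors, PRKG2, the second cGMP-dependent kinase, averaged 15.6 ± 1.33 CPM in Prol and 16.7 ± 0.956 in Sen(IR), and fell to 10.3 ± 1.02 with UK5099 (log2 fold change −0.70). The export pumps ABCC4 and ABCC5, which carry cyclic nucleotides out of the cell, both rose in Sen(IR), by 0.84 and 1.06. ABCC5 rose further with UK5099 (0.77), from 61.3 ± 2.12 to 105 ± 3.78 CPM.

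Of 12 tested substrates and partners of the kinase, 4 rose and 5 fell in Sen(IR) (75%, against 47.2% of all genes). With UK5099, 0 rose and 3 fell (25%, against 20.8% of all genes called, 8.76% higher and 12.1% lower). VASP, an actin regulator and classical substrate, fell from 140 ± 13.4 CPM in Prol to 72.5 ± 1.25 in Sen(IR) and 41.4 ± 1.99 with UK5099 (−0.95 and −0.81). The cation channel gene TRPC6 fell from 26.6 ± 1.87 to 4.53 ± 0.944 and then 1.57 ± 0.3597 CPM (−2.54 and −1.54). RGS2, which turns off G protein signals, rose in Sen(IR) by 1.56 and fell with UK5099 by 0.98.

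In Sen(IR), ITPR1 (1.67), MRVI1, which links the kinase to the inositol trisphosphate receptor (0.77), and HSPB6 (1.66) also rose, and CSRP1, PPP1R12A and RHOA fell by 1.15, 0.73 and 0.62. HSPB6 and RHOA share 38.3% and 19.0% of their exon bases with other genes. The summed smooth muscle markers given above were also lower in Sen(IR) than in Prol and lower again with UK5099, and with UK5099 5 of the 7 tested smooth muscle markers and 6 of the 10 fibroblast markers, COL1A1 among them, were called lower. Their part in these differences was not tested.

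**Figure D5:**
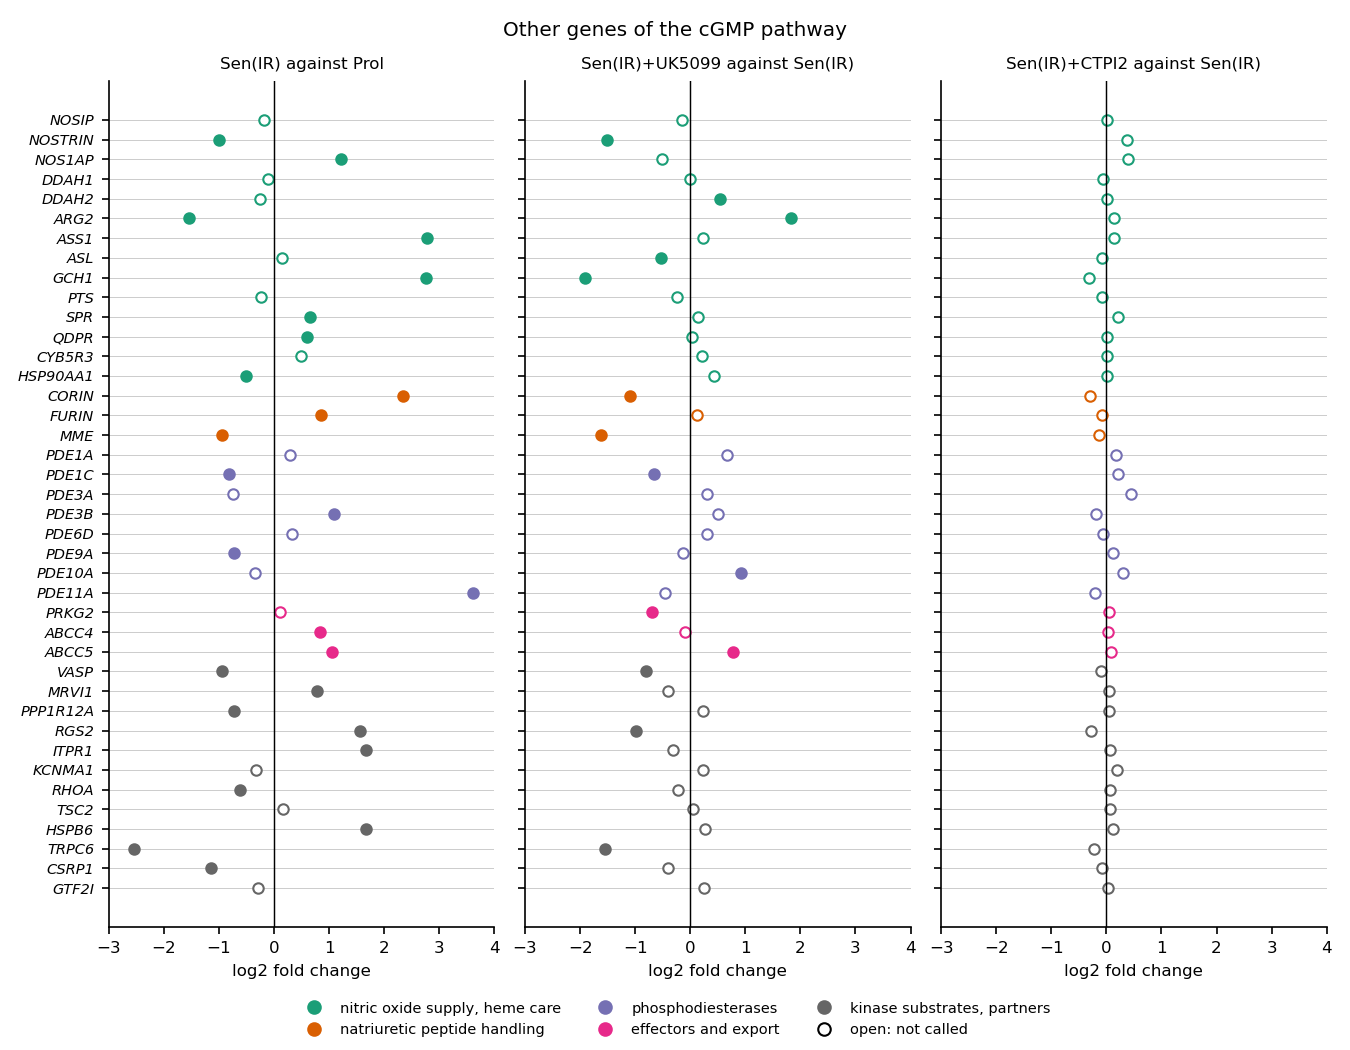
Log2 fold change (horizontal axis) of 40 of the 41 tested pathway genes, by role, in 3 comparisons; filled points met both limits for a call, an adjusted p below 0.05 and a log2 fold change beyond 0.5 in either direction. PDE2A, without a count in Prol, is left out, and the panel for CTPI2 against Sen(IR) holds no filled point.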

How the data were processed

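Per the methods of the study, the authors used Trimmomatic 0.36 for trimming, STAR 2.5.2b for alignment to GRCh38 and featureCounts (Subread 1.5.2) for counting uniquely aligned exon reads by gene. The deposited table holds raw counts, mapped to groups by label, with 0 columns of other samples. Counts were fitted in R 4.3.3 with edgeR 4.0.16 (TMM, filterByExpr, quasi-likelihood test), all 12 libraries together, without a replicate term, with Benjamini-Hochberg adjustment across the 16251 genes tested. Tests were run on simulated data first. The members and lists were chosen with earlier results of these data known.

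Genes named are the 7 members, pathway genes called or most abundant, neighbours within 1 Mb, the nearest patterns (5 for GUCY1B1 and 2 for each other tested member), and the genes beside GUCY1B1 in rank. Cell type markers were listed by type. Alternatives were DESeq2 1.42.0, other scalings, filters, limits and samples, a replicate block and leaving out each library. Positions and exon lengths come from GENCODE v44 (56410 of 57500 identifiers matched), promoters from RefSeq (7 of 7 members). Replicate pairs had a chi-square per gene of 2.24 to 12.5, where 1 is sampling noise, so no pair differed by sampling noise alone. Libraries prepared from the same culture cannot be recognised in this way.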

Additional observations from a re-analysis of the deposited data

How the results depend on the processing

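In the comparisons with calls, the counts of called members were within 1.5 times the main value in 28 of 28 alternative settings and those of pathway genes in 26 of 28, and 205 of 216 member log2 fold changes kept their direction and side of the limits. Requiring a log2 fold change beyond 1 in either direction left 15 pathway genes in Sen(IR) against Prol and 7 in UK5099 against Sen(IR). Leaving out 1 library gave 4 to 5 called members in Sen(IR) against Prol, 5 in CTPI2 against Prol and 0 in CTPI2 against Sen(IR), and 25 to 28, 14 to 15 and 0 pathway genes in Sen(IR) against Prol, UK5099 against Sen(IR) and CTPI2 against Sen(IR). GUCY1A1 in Sen(IR) against Prol was not called with only the 2 groups in the fit (0.87, edgeR adjusted p = 0.0790) or in 4 of 6 fits without a library (range 0.53 to 1.58, adjusted p 4.18e-04 to 0.180). Its CTPI2 against Prol difference stayed called, at 0.89 to 1.94, with the highest value without Prol 2. Upper-quartile scaling moved the median of all genes against Prol to 0.135 in Sen(IR) and 0.124 with CTPI2, and with it PRKG1 turned to 0.0230 and 0.0908. PRKG1 in CTPI2 against Prol also turned without Prol 2 (0.0637), CTPI2 1 (0.00176) or CTPI2 2 (0.00795), within a range from −0.0812, and NPR2 in CTPI2 against Sen(IR) turned without CTPI2 3 (0.0623), within a range from −0.0634, none of them called. The cause was not tested.

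Replicate numbers did not pair the libraries: deviations of same-numbered libraries had correlations of −0.0511 to 0.0423 over 18 pairs, and 6 of 12 libraries correlated best with their own number. With the replicate block, GUCY1A1 in Sen(IR) against Prol had a log2 fold change of 0.89 (edgeR adjusted p = 0.0372), and the members called numbered 5. Depth limits GUCY1A1 and GUCY1A2, with at most 112 and 9 counts in a library.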
